A study of Mus musculus with 5 samples.

Results

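Crem, Creb1, Atf1, Fhl5, Tbp, Tbpl1, Gtf2a1l, Taf7l, Taf4b and Spz1 are genes of transcription factors and, for Fhl5, of a coactivator. They act through cyclic AMP response elements, through the TATA-binding machinery or, for Spz1, in differentiating male germ cells. These 10 genes were taken by symbol from the 56324 rows of the deposited table, and each symbol matched 1 row. The samples were 3 preparations of spermatids and 2 of spermatocytes, all sorted by sedimentation under gravity from C57Bl/6 males of 12 weeks, and the labels name no other treatment or allele. Each value is a normalized read count, the reads assigned to a gene in stranded mRNA libraries, which the authors had divided by a DESeq size factor of the library. The spermatid libraries held 62249782 to 84361908 reads and the spermatocyte libraries 52784231 to 80384019. Nothing in the labels ties samples to different animals, so p-values cover the spread between these preparations, which may be technical.

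CREM, CREB1 and ATF1 are basic leucine zipper proteins that bind the cyclic AMP response element. In most tissues they are switched on by phosphorylation and recruit the acetyltransferases CBP and p300, whereas in spermatids CREM works with FHL5, also called ACT, a LIM-domain coactivator, and mice without Crem make no sperm beyond round spermatids. TBP nucleates the preinitiation complex as part of TFIID, with TFIIA at its side. Germ cells add variants of these parts: TBPL1, a TBP relative that does not bind the TATA box, GTF2A1L, a germ cell form of the large TFIIA subunit, and TAF7L and TAF4B, relatives of TFIID subunits.

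Promoter windows from RefSeq (GRCm38.p6, the assembly that mm10 names) cover 250 bases before to 50 after a start site. They were matched for 8 of the 10 genes, with 9 windows in all, and are shown for the genes with the largest changes (Fhl5, Spz1 and Taf7l) and for the genes whose window held the core of the response element (Atf1 and Tbp). Capitals mark TGACG or TATAAA on either strand.
Fhl5, chr4:25242803-25243102, minus strand: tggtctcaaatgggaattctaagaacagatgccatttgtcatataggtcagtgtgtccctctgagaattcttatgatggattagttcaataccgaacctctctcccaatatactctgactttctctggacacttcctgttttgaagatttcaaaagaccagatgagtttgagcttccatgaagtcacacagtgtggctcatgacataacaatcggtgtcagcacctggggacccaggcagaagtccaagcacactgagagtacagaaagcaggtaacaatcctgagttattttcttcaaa
Spz1, chr13:92576183-92576482, minus strand: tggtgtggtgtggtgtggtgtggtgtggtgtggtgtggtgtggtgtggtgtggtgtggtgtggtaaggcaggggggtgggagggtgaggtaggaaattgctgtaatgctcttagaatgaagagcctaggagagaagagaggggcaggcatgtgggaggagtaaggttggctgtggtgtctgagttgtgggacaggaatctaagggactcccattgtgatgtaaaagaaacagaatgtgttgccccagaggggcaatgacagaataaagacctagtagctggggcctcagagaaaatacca
Taf7l, chrX:134476441-134476740, minus strand: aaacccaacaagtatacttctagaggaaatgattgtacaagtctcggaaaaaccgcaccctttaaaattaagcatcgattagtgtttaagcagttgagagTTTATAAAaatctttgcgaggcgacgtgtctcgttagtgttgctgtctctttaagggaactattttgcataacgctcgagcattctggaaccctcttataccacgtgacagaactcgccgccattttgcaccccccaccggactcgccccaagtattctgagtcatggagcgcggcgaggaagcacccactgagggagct
Atf1, chr15:100227609-100227908, plus strand: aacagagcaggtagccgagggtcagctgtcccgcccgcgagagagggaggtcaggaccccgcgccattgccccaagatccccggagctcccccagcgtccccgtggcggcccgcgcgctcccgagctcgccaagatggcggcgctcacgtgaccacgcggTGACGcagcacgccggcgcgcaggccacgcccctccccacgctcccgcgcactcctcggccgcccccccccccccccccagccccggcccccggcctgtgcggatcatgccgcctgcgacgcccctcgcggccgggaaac
Tbp, chr17:15499638-15499937, plus strand: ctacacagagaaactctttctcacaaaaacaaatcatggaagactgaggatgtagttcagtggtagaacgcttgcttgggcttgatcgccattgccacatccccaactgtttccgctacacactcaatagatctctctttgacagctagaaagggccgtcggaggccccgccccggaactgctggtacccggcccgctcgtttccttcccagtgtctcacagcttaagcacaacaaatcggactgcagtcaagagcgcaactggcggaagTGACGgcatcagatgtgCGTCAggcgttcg

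The whole response element TGACGTCA, searched on both strands, was found in 588 of 32851 RefSeq promoter windows (1.79%) and in the window of none of the 8 genes. Its core TGACG, which also lies inside the whole element, was found in 20.8% of windows. Atf1 held it at position -90 from the start site, and Tbp held it at 21 and, on the other strand, at 38. TATAAA was found in 13.6% of windows and among the 8 genes in Taf7l, at -148 and, overlapping it on the other strand, at -150. The Fhl5 and Spz1 windows held none of these letters. GGGCGG was found in 35.7% of windows and in 5 of the 8 genes (Creb1, Tbpl1, Atf1, Tbp and Gtf2a1l), and CCAAT in 37.4% of windows and in Fhl5 alone of the 8. These are letter matches and not binding data.

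Marker genes set the spermatid samples apart clearly and the spermatocyte samples less so, with other cells present. All 10 spermatid markers were higher in spermatids, and in spermatocytes each stood at 1.06% to 1.996% of its spermatid level. Of 9 spermatocyte markers, 5 were lower in spermatids and 1 higher, and their summed level was 53470 to 63078 in spermatids against 105901 to 115260 in spermatocytes. All 10 Sertoli cell markers were lower in spermatids, with sums of 1498 to 2166 against 56869 and 75274 in the spermatocyte samples, as were all 5 Leydig cell markers, with sums of 104 to 281 against 2237 and 2761. Of 7 myoid, endothelial and macrophage markers 5 were higher in spermatids, with sums of 1163 to 1980.2 against 389 and 484. Of 10 spermatogonia markers 4 were higher (Kit, Stra8, Gfra1 and Sohlh1) and 2 lower (Uchl1 and Ddit4), with sums of 2047 to 2749 against 1967 and 2359. These sums hide larger differences of single genes. Stra8 had a mean of 727 in spermatids and 91.5 in spermatocytes, and Ddit4 of 82.1 and 611. No marker was at 0 in either group. What Sertoli cells added to the spermatocyte values of widely expressed genes such as Creb1, Tbp and Fhl1 was not tested. Nor was it tested what spermatogonia and other cells added to the spermatid values of the 10 genes. In such bulk samples fewer cells of a type and less RNA per cell cannot be told apart.

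Of the 10 genes, 8 were higher in spermatids and none lower (limma, Benjamini-Hochberg adjusted p under 0.05 over 28370 genes). Among all tested genes 77.1% were called, 40.6% higher and 36.5% lower, so most genes of any kind differed between these cell types. For 9 of the 10 genes every spermatid value lay on 1 side of both spermatocyte values, as for 85.8% of all tested genes. The median log2 fold change of the 10 genes was 1.19, spermatids over spermatocytes, and that of all tested genes 0.07. Directions depend on the zero point. Rescaling each library to the same total moved the median of all genes to -0.57, and quantile normalization moved it to -0.39. Crem, Fhl5, Gtf2a1l, Taf7l and Spz1 stayed called higher under both, whereas Tbpl1 turned to lower under both, as given with its values.

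**Figure D1:**
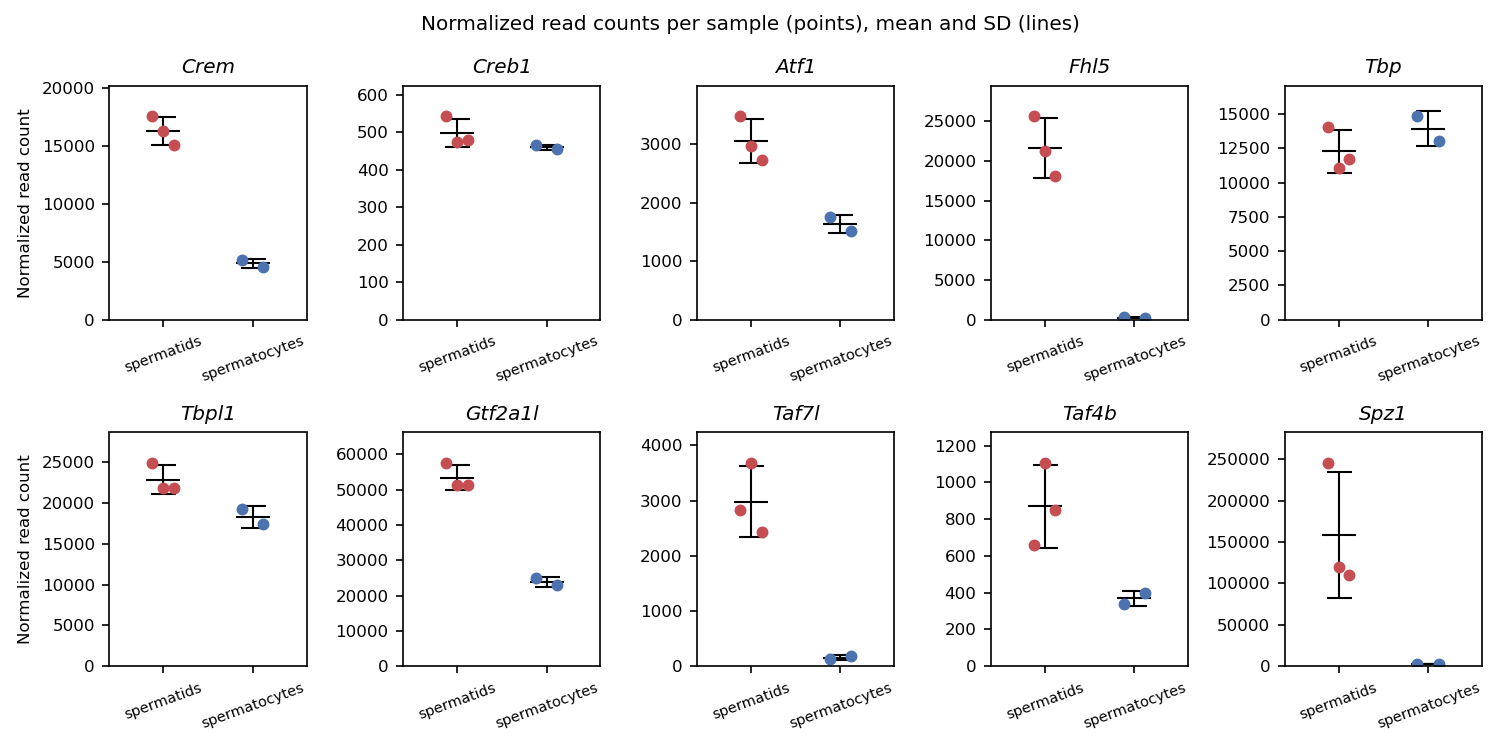
Normalized read count of each of the 10 genes in 3 spermatid samples (left in each panel) and 2 spermatocyte samples (right); points are samples, and lines the mean with SD. Axes start at 0 and differ between panels. Only the Tbp panel has overlapping groups; Spz1 reached 245447 in spermatid replicate 1 and at most 120004 in the other spermatid samples.

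Crem (chr18:3266354-3337591), whose tau isoforms are the activators of spermatids, had normalized read counts of 17568, 16294 and 15078 in the spermatid samples, against 5157 and 4568 in the spermatocyte samples. All spermatid samples were far above both spermatocyte samples, 3.35-fold by the means. The log2 fold change was 1.75 ± 0.10 (SE), with a limma adjusted p of 1e-05. It was 1.10 with equal library totals and 1.06 after quantile normalization, still called. Crem uses several promoters and makes both activators and repressors, and 1 value per gene does not separate them.

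The other response element binders were lower per exon length and changed less. Atf1 (chr15:100227817-100261248), a close relative of Creb1, had values of 3476, 2975 and 2730.1 in spermatids, against 1751 and 1522 in spermatocytes, with no overlap. Its log2 fold change of 0.90 ± 0.13 (limma adjusted p = 0.00078) shrank to 0.25 with equal library totals, where the call ended (limma adjusted p = 0.061). Creb1 (chr1:64532804-64604547), the somatic prototype of the family, had 543, 476 and 480.0 in spermatids, against 465 and 456 in spermatocytes. The groups did not overlap, yet the gap was small beside their spread: the log2 fold change was 0.11, with a 95% interval of -0.21 to 0.43 (limma adjusted p = 0.46). Creb1 turned to -0.53 under equal library totals, which counts as lower in spermatids (limma adjusted p = 0.011), and to -0.32 after quantile normalization (limma adjusted p = 0.062). Relative to the median gene it stood at 0.05, 0.04 and 0.07 on the log2 scale with the deposited scaling, equal totals and quantile normalization.

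Fhl5 (chr4:25199909-25242876), the CREM coactivator, had the largest change of the 10 genes. Its values were 25600.2, 21262 and 18103.5 in spermatids, against 285 and 221 in spermatocytes. The log2 fold change was 6.41 ± 0.18 (limma adjusted p = 5.2e-07), above that of 98.4% of the tested genes. The spermatocyte level was 1.17% of the spermatid level, within the 1.06% to 1.996% seen for the spermatid markers. Whether the Fhl5 reads of the spermatocyte samples came from spermatocytes was not tested.

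TBP and its relative hardly moved. Tbp (chr17:15499887-15517427) had values of 14067, 11099 and 11706 in spermatids, against 14822.5 and 13042 in spermatocytes, and the groups overlapped through spermatid replicate 1. The estimate of -0.19 on the log2 scale had a 95% interval of -0.49 to 0.12 (limma adjusted p = 0.22). Tbp was called lower in spermatids without spermatid replicate 1 (log2 fold change -0.29, limma adjusted p = 0.023), with equal library totals (-0.83) and after quantile normalization (-0.95). Tbpl1 (chr10:22703877-22731934), which mouse spermatids need to complete their shaping, had values of 24896, 21829 and 21875 in spermatids, against 19262.5 and 17361 in spermatocytes. Every spermatid sample was above both spermatocyte samples, but by little. The log2 fold change of 0.32 ± 0.10 (limma adjusted p = 0.024) lost its call without spermatocyte replicate 1 (0.059) or replicate 2 (0.18), with TMM factors (0.058) and without an eBayes trend (0.1). It turned to -0.33 with equal library totals (limma adjusted p = 0.0068) and to -0.44 after quantile normalization (limma adjusted p = 0.0011).

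**Figure D2:**
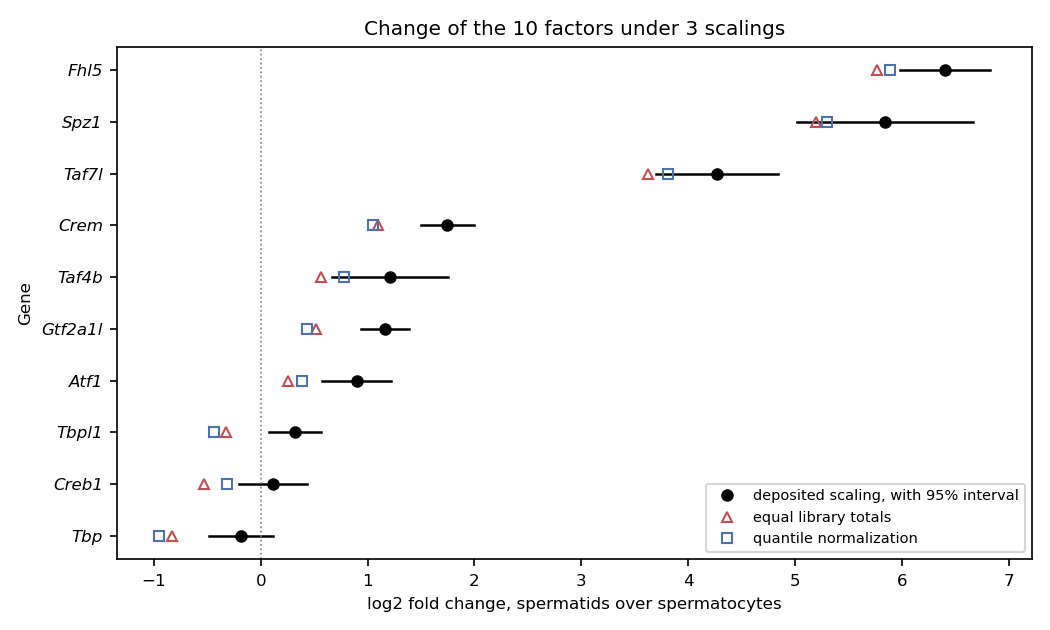
Log2 fold change of each gene, spermatids over spermatocytes, on the horizontal axis, with genes in rows. Filled circles with lines give the deposited scaling and its 95% limma interval, triangles equal library totals and squares quantile normalization. Tbpl1 and Creb1 lie right of 0 with the deposited scaling and left of it with the other scalings, while Fhl5, Spz1 and Taf7l lie above 3.6 in all of them.

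Gtf2a1l (chr17:88668660-88715150) was already abundant in spermatocytes. It had values of 57532, 51361 and 51335 in spermatids, against 24844 and 22891 in spermatocytes, which makes spermatids 2.24-fold higher. The log2 fold change was 1.16 ± 0.09 (limma adjusted p = 4.2e-05), and it was 0.51 with equal library totals and 0.44 after quantile normalization, called in both. The TFIID variants also rose. Taf7l (chrX:134460116-134476491), an X-linked relative of Taf7, had 2831, 3682 and 2434 in spermatids, against 123 and 186 in spermatocytes, a log2 fold change of 4.27 ± 0.24 (limma adjusted p = 7.2e-06). Its spermatocyte level was 5.18% of the spermatid level, above the range of the spermatid markers. Taf4b (chr18:14783244-14900359), a gonadal relative of the TFIID subunit TAF4, had 657, 1105 and 847 in spermatids, against 340.4 and 396 in spermatocytes, and its spermatid samples varied the most among themselves after those of Spz1. The log2 fold change of 1.21 ± 0.23 (limma adjusted p = 0.0023) lost its call with equal library totals (0.56, limma adjusted p = 0.1).

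Spz1 (chr13:92574631-92576232), a basic helix-loop-helix zipper factor gene of the testis, had the highest level of the 10 genes in spermatids, per exon length too. Its 245447, 120004 and 109759 in spermatids stood against 2966 and 2237 in spermatocytes, a log2 fold change of 5.84 ± 0.34 (limma adjusted p = 9.3e-06). The spermatocyte level was 1.64% of the spermatid level, again within the range of the spermatid markers. Spermatid replicate 1 held 2.14 times the mean of the other spermatid samples. The sum of the spermatid markers moved with it, with 2146850 in replicate 1 and 808174 and 773868 in replicates 2 and 3. Single markers did not all do so. Acrv1, Spaca1 and Catsper3 stood in replicate 1 at 0.954, 0.974 and 0.811 times the mean of the others. The remaining spermatid markers stood at 1.87 (Odf1) to 4.15 (Prm2) times. The part of this difference between samples in the Spz1 value was not tested. Of the 10 genes, 8 were highest in spermatid replicate 1, by 1.12 to 2.14 times the mean of the others, whereas Taf7l and Taf4b were below that mean, at 0.926 and 0.674 times. The same 8 genes were higher in spermatocyte replicate 1 than in replicate 2, and Taf7l and Taf4b were again the exceptions. The share of all tested genes with either order was not computed. The median log2 ratio of spermatid replicate 1 over the mean of the others was 0.19 for the 10 genes and 0.01 for all tested genes.

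Levels per kilobase of merged exons (GENCODE vM21) set the genes side by side within a cell type. In spermatids Spz1 stood highest, at a normalized count of 103060 ± 49158 per kb (SD, n = 3). It was followed by Gtf2a1l at 28289 ± 1891, Fhl5 at 18493 ± 3214, Tbpl1 at 6991 ± 537, Crem at 2767 ± 211, Taf7l at 1328 ± 284, Atf1 at 1000.2 ± 124, Tbp at 905 ± 115, Taf4b at 169 ± 43.6 and Creb1 at 36.3 ± 2.73. Taf7l and Atf1, and Atf1 and Tbp, differed by less than the sum of their SDs. In spermatocytes the order was Gtf2a1l at 12642 ± 732 per kb (SD, n = 2), Tbpl1 at 5598 ± 411, Spz1 at 1693 ± 336, Tbp at 1026 ± 92.7, Crem at 825 ± 70.7, Atf1 at 535 ± 53.0, Fhl5 at 216 ± 38.7, Taf4b at 71.5 ± 7.68, Taf7l at 68.9 ± 20.04 and Creb1 at 33.5 ± 0.48. There, Taf4b and Taf7l differed by less than the sum of their SDs. Fhl5 stood at place 3 in spermatids and at place 7 in spermatocytes, while Gtf2a1l and Tbpl1 were among the 4 highest in both. Merged exons join all annotated isoforms, 13.7 kb for Creb1 and 13.6 kb for Tbp, so genes with long alternative ends come out low.

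Factors were then set against a relative within each sample in 7 pairs, a ratio that division by a library factor leaves almost unchanged. The ratios are of reads and not per length, so their difference between cell types is what can be read. The log2 ratio of Taf7l over Taf7 was 1.12, 1.58 and 1.23 in spermatids, against -4.42 and -3.80 in spermatocytes. Per kb of exons, Taf7l stood at 1328 and Taf7 at 359 in spermatids, against 68.9 for Taf7l and 798 for Taf7 in spermatocytes, so the order of the genes turned round. The log2 ratio of Taf4b over Taf4a, the symbol of the TAF4 gene in the table, turned likewise, with 2.43, 3.12 and 2.82 in spermatids against -0.66 and -0.57 in spermatocytes. Per kb, Taf4b stood at 169 and Taf4a at 26.4 in spermatids, against 71.5 for Taf4b and 122 for Taf4a in spermatocytes. Both counterparts fell: Taf7 to 1187 ± 137 in spermatids, against 2633 ± 33.7 in spermatocytes (limma adjusted p = 0.00017), and Taf4a to 122 ± 3.35, against 562 ± 35.3 (limma adjusted p = 2.6e-05). Taf7 overlaps a protocadherin row of the table with a mean of 23033, more than its own 1765, so its level is uncertain. Taf4b also overlaps a row above its own level, given below, so its level is uncertain too.

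Gtf2a1l over Gtf2a1, the somatic large subunit of TFIIA, had a mean log2 ratio of 5.16 ± 0.16 (SD, n = 3) in spermatids and 3.92 ± 0.02 (SD, n = 2) in spermatocytes. The difference of 1.24 came with no called change of Gtf2a1 itself, which was at 1511 ± 275 in spermatids and 1574 ± 72.1 in spermatocytes (limma adjusted p = 0.69), though equal library totals called it lower (log2 fold change -0.72). Tbpl1 over Tbp had a log2 ratio of 0.90 ± 0.08 in spermatids and 0.40 ± 0.02 in spermatocytes, so Tbpl1 gained 0.51 on Tbp. Crem gained 1.63 on Creb1, and Atf1 gained 0.78. The largest gain was that of Fhl5 over Fhl1, with a log2 ratio of 10.21 ± 0.41 in spermatids and 0.21 ± 0.51 in spermatocytes. Fhl1 is a LIM-domain relative of muscle and other tissues and fell to 17.8 ± 6.52 in spermatids, against 219 ± 38.0 in spermatocytes (limma adjusted p = 0.00013). The Sertoli markers moved with Fhl1, and their part in this ratio was not tested. In all 7 pairs the spermatid ratios lay above the spermatocyte ratios. How often other gene pairs separate was not computed, and among single tested genes 85.8% had groups that did not overlap. The pairs are not independent, since Crem and Atf1 share Creb1 as counterpart. The exact permutation test (two-sided, on the absolute difference) gave p = 0.1 for each, the smallest that 3 against 2 samples can give, also after adjustment over the 7 pairs.

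**Figure D3:**
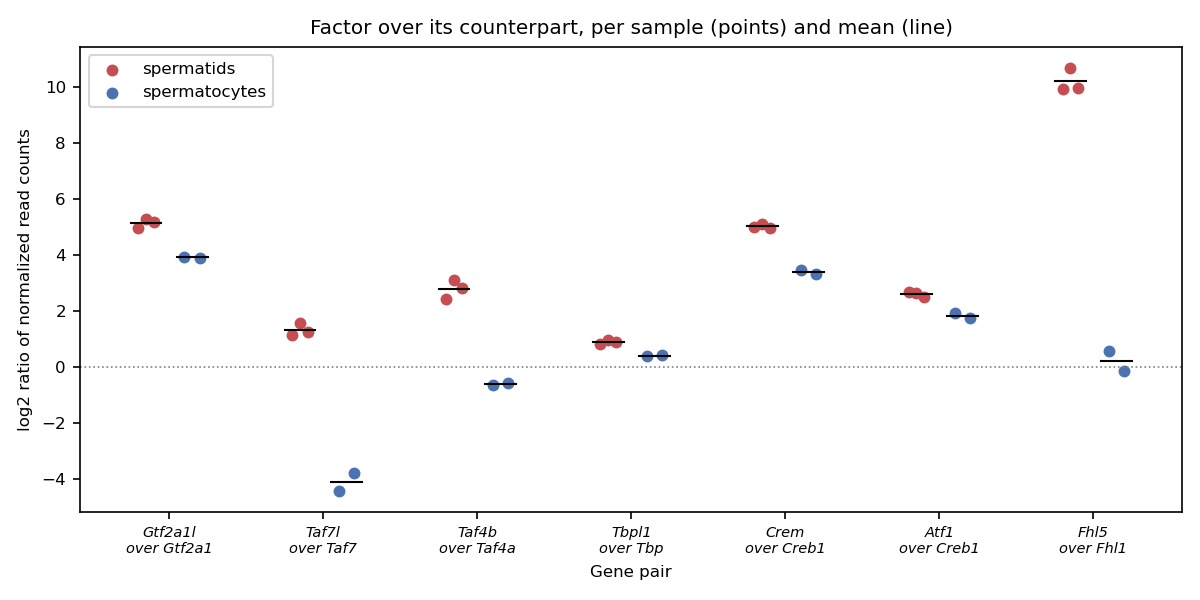
Log2 ratio of normalized read counts (vertical axis) of a factor over its counterpart in each of 3 spermatid samples (left of each pair, red) and 2 spermatocyte samples (right, blue), with lines at the means. In the Taf7l and Taf4b pairs the ratio lies above 0 in spermatids and below 0 in spermatocytes.

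The rows of 5 of the 10 genes overlap other rows of the table, and since the strand setting of the counting is not given in the sources used here, reads of overlapping rows cannot be told apart. Inside Atf1 an unnamed row (chr15:100228258-100230186), of which 17.8% lies in Atf1 exons, had a mean of 2314 in spermatids and 3255 in spermatocytes. It was above Atf1 itself in spermatocytes and went the other way, with a log2 fold change of -0.50 ± 0.12 (limma adjusted p = 0.008). Inside Tbpl1 a row wholly outside its exons (chr10:22713283-22716081) was at 49.7 in spermatids and 615 in spermatocytes, a log2 fold change of -3.66 ± 0.30, whereas another (chr10:22707420-22710238), with 12.3% in exons, was at 2856 in spermatids and 2707 in spermatocytes (limma adjusted p = 0.69). Another pair of rows at the ends of Tbpl1 were lower in spermatids. These were Slc2a12, at 9.19 in spermatids and 286 in spermatocytes, and an unnamed row (chr10:22731492-22732635), at 434 in spermatids and 1034 in spermatocytes, so 3 of the 4 rows went against the direction of Tbpl1. Creb1 holds 3 unnamed rows with spermatid means of 5.31 to 14.1 and spermatocyte means of 39.0 to 66.7, each called lower in spermatids. The row at chr1:64560925-64562566 lies wholly in Creb1 exons and had a log2 fold change of -2.88 ± 0.63 (limma adjusted p = 0.0049), and the other rows lie outside them. The row of Taf4b overlaps an unnamed row near its end, with 38.0% in Taf4b exons. That row was above Taf4b, at 1220 in spermatids and 1340 in spermatocytes (limma adjusted p = 0.40). Crem overlaps Gm6225, on the opposite strand in GENCODE, which was at 1274 in spermatids and 364 in spermatocytes. Fhl5, Tbp, Gtf2a1l, Taf7l and Spz1 overlap no other row.

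Other factors of the CREB and ATF family went both ways and were called about as often as genes at large. Of 15 listed, 13 were tested, of which 6 were higher in spermatids, 4 lower and 3 not called, beside 77.1% of all tested genes called in either direction. Under equal library totals, and likewise under quantile normalization, 4 were higher and 6 lower. Their median log2 fold change was 0.24, beside 0.07 for all tested genes. Creb3l4, a membrane-bound relative with high levels in mouse spermatids, had the highest count of the list, with 36824 ± 3047 (SD, n = 3) in spermatids and 924 ± 61.4 (SD, n = 2) in spermatocytes, a log2 fold change of 5.31 ± 0.10 (limma adjusted p = 3.7e-07). Atf2 was at 6616 ± 408 in spermatids and 4303 ± 225 in spermatocytes, 0.62 higher on the log2 scale, though -0.03 under equal library totals and -0.04 under quantile normalization. The row of Atf2 reaches position 74443934 of chr2, whereas GENCODE gives the gene only up to 73892639. It overlaps 6 other rows, the largest being Atp5g3 with a mean of 2171, so the level of Atf2 is uncertain. Atf4, the effector of the integrated stress response, fell to 1581 ± 409 in spermatids, against 4836 ± 8.93 in spermatocytes.

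Cofactors of CREM and CREB and subunits of protein kinase A held genes that rose and genes that fell. Of 16 tested, 9 were higher in spermatids, 4 lower and 3 not called, a share of calls near the 77.1% of all tested genes. The median log2 fold change was 0.88, beside 0.07 for all tested genes, and 7 were higher and 5 lower under equal library totals and under quantile normalization. Fhl4, a testis relative of Fhl5, had the highest count, with 415547 ± 78595 in spermatids and 216802 ± 15510.3 in spermatocytes (log2 fold change 0.92, limma adjusted p = 0.0016, but 0.02 and not called after quantile normalization). Prkar1a, a regulatory subunit of the kinase, was at 27390.3 ± 2052 in spermatids and 15299.9 ± 1163 in spermatocytes, and its call ended with equal library totals and after quantile normalization. Camk4, whose gene also encodes the testis protein calspermin, rose the most, to 3001 ± 1086 in spermatids, against 37.0 ± 11.6 in spermatocytes. Fhl1 fell the most.

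Genes reported as CREM targets in mouse testis were called higher for 8 of 10, beside 40.6% of all tested genes, with a median log2 fold change of 5.62, and none was lower. The list was drawn up with results of these samples known, and 5 of its genes are also among the spermatid markers, so its direction is no independent evidence on CREM. Ldhc, the germ cell lactate dehydrogenase, was at 348695 ± 15814 in spermatids and 303628 ± 31109 in spermatocytes (limma adjusted p = 0.12). Pdha2, the germ cell form of a pyruvate dehydrogenase subunit, was at 18884 ± 1079 and 21756 ± 230.4 (limma adjusted p = 0.065). Both genes counted as lower in spermatids under equal library totals and quantile normalization. Prm2, a protamine gene, was at 583221, 140587 and 140411 in spermatids, against 6180 and 4300.1 in spermatocytes, so that spermatid replicate 1 stood far above the other spermatid samples. It was called higher without any 1 of the 5 samples. Camk4, given above, had the largest change.

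Subunits of TFIID other than Taf7l and Taf4b split. Of 14 tested, 8 were higher in spermatids, 4 lower and 2 not called (median log2 fold change 0.31), beside 77.1% of all tested genes called. These counts became 3 higher and 8 lower with equal library totals, 5 higher and 8 lower after quantile normalization, and 5 higher and 4 lower without spermatocyte replicate 2. Taf9b, a relative of Taf9, rose to 1736 ± 194 in spermatids, against 43.0 ± 7.72 in spermatocytes, a log2 fold change of 5.31 ± 0.18 (limma adjusted p = 8.8e-07). Taf9, with the highest count, was at 88332 ± 11053 in spermatids and 73621 ± 5519 in spermatocytes (limma adjusted p = 0.098), but it was called lower under equal library totals (log2 fold change -0.39) and quantile normalization (-0.31). Taf6 was at 12471 ± 335 in spermatids and 9668 ± 433 in spermatocytes, a rise that missed the threshold once spermatocyte replicate 2 was dropped (limma adjusted p = 0.053) and that turned to -0.28 under equal library totals and -0.37 under quantile normalization, both called lower. Taf2 fell the most, to 1656 ± 117 in spermatids, against 10724.5 ± 322 in spermatocytes, a log2 fold change of -2.70 ± 0.10.

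Of 21 tested genes for other TBP partners and general factors of RNA polymerase II, 13 were lower in spermatids, 4 higher and 4 not called, beside 36.5% of all tested genes lower and 77.1% called in either direction. The median log2 fold change was -0.70. The counts were 17 lower and 1 higher with equal library totals and 17 lower and 0 higher after quantile normalization. Without spermatocyte replicate 2 only 2 were called higher. Dr1 and Drap1 encode the subunits of NC2, which binds TBP on DNA and represses. Dr1 fell to 9719 ± 358 in spermatids, against 33541 ± 483 in spermatocytes (log2 fold change -1.79), while Drap1 was at 17407 ± 2294 and 19635.5 ± 2553 (limma adjusted p = 0.28), though -0.82 and -0.92 on the log2 scale, both called, under equal library totals and quantile normalization. Gtf2a2, the small TFIIA subunit, rose to 12633 ± 1011 in spermatids, against 6713 ± 225 in spermatocytes, a log2 fold change of 0.91 that was 0.17 and not called after quantile normalization. Gtf2e1, a subunit of TFIIE, fell the most, to 381 ± 49.98 in spermatids, against 2332 ± 13.4 in spermatocytes. Tbpl2, the oocyte TBP relative, had no read in 4 of the 5 libraries and 2.10 in spermatid replicate 3, under the 3.14 that 3 reads are worth there, and was not tested.

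**Figure D4:**
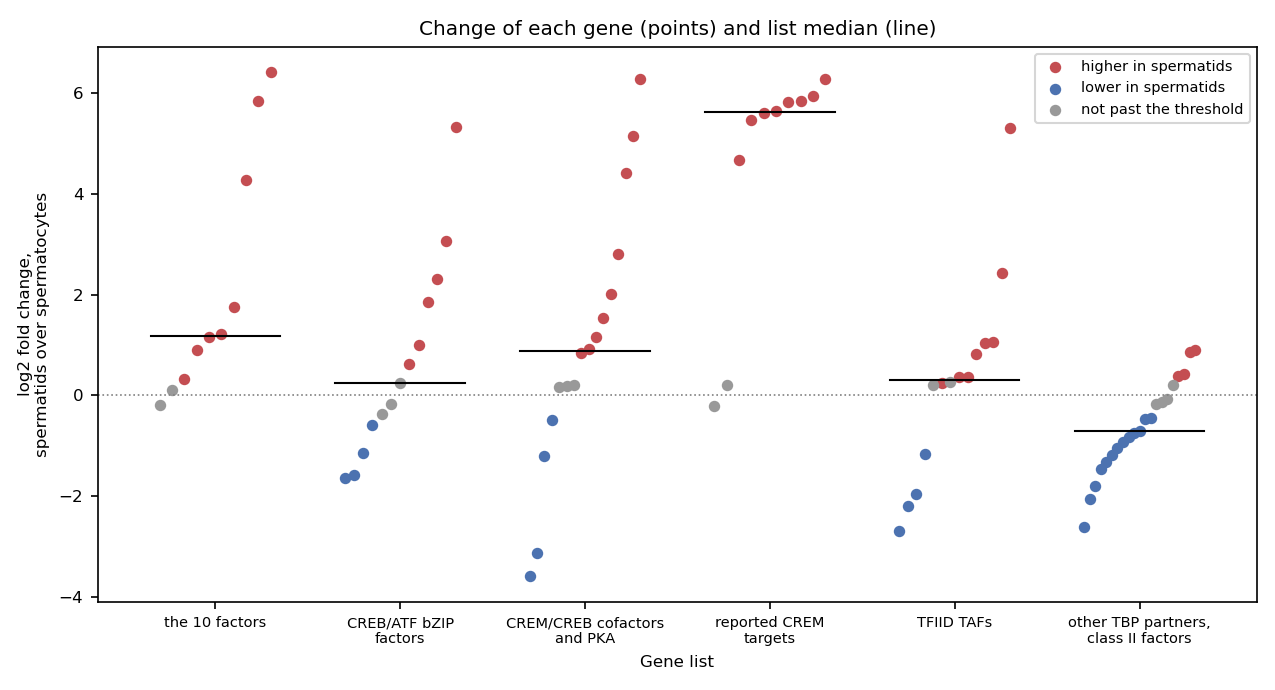
Log2 fold change, spermatids over spermatocytes (vertical axis), of each tested gene in the 10 factors and 5 lists, sorted within a list. Red points were called higher in spermatids, blue points lower and grey points neither, and lines are medians, from -0.70 for other TBP partners and class II factors to 5.62 for reported CREM targets.

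Genes with the most similar profile over the 5 samples were found by the root mean square difference of centred log2 values among 11832 named genes with a mean of at least 100. Nearest to Crem were Plcd4 (difference 0.016), Ift81 (0.025) and Dgcr14 (0.034). Nearest to Tbpl1 were Crbn (0.013), Ccdc92 (0.014) and Sdccag8 (0.020), and nearest to Gtf2a1l were Ppp1r42 (0.0085), Ppp1r16a (0.0091) and Csnk1d (0.025). Spz1 was nearest to Acsl1 (0.036), H2afb1 (0.068) and St6galnac2 (0.071), and Acsl1 likewise held 115937 in spermatid replicate 1 against 58817 and 54459 in the other spermatid samples. Plcd4 overlaps the row of Usp37, which has a mean of 12475 beside its own 17955.5.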

How the data were processed

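The deposited table gives a normalized signal per gene and sample, the authors' gene counts divided by a DESeq size factor, per the file headers and the notes on processing. The submitters' processing notes name FastQC, Picard, SAMtools, STAR 2.4.0, DESeq and mm10, with no role or order. How reads were counted, with which strand setting and with what rule for similar genes, is not given in those sources. Within 0.001, 100% of the values were whole multiples of the value of 1 read in their library, so whole reads were recovered; as more genes had 2 reads than 1, reads may not be independent molecules.

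The labelled cell type gave the groups; replicate numbers follow accession order and pair nothing. Genes with a mean of at least 10 were tested with limma 3.58.1 (R 4.3.3) on log2(value + 1), with an eBayes intensity trend, and called at a Benjamini-Hochberg adjusted p of 0.05; fold changes on this scale understate the change of low genes. Alternatives were edgeR 4.0.16 and DESeq2 1.42.0 on recovered reads with the authors' size factors, pseudocounts of 0.5 and 5, no filter or a mean of at least 100, equal totals, TMM, quantile normalization, no trend and leaving out each sample; genes tested stayed the same where scaling or samples changed. The fit was tested on simulated counts. The 10 genes and all lists were chosen with earlier results of these data known. Named beside the 10 genes were their counterparts, the 2 most abundant and the most changed genes of each list, and the 3 nearest profiles of Crem, Tbpl1, Gtf2a1l and Spz1; genes outside this rule were chosen after their values were seen. Rows with several symbols were not matched. Protein sequences were not used here. Python 3.11.15, pandas 2.3.3, numpy 2.4.6, scipy 1.17.1 and matplotlib 3.10.9 made the summaries and plots.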

Additional observations from a re-analysis of the deposited data

How the results depend on the processing

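Crem, Fhl5, Gtf2a1l, Taf7l and Spz1 were called higher in spermatids in all 16 fits, the reported one included, and Atf1 and Taf4b in 15. With equal library totals 5 of the 10 genes were called higher and 3 lower, and after quantile normalization 2 were called lower; the cause was not tested beyond the shift of the median gene. Tbpl1 turned to -0.33 and -0.44 under these scalings, and Creb1 to -0.53 and -0.32. Relative to the median gene, Tbpl1 stood at 0.25 with the deposited scaling, 0.24 with equal totals and -0.05 after quantile normalization. Tbp stood at -0.25, -0.26 and -0.56 in the same order. Leaving out each sample gave 7 to 9 genes called, 7 to 8 higher and 0 to 1 lower, 51 to 61 list members called and 18442 to 22372 genes called in all. Where this left 1 spermatocyte sample, it was assumed to vary like the spermatid samples. With a mean of at least 100, 13986 genes were called, since fewer were tested. The differences between paired genes kept their direction in all 63 recomputed values, from 0.47 to 0.54 without 1 sample for Tbpl1 over Tbp. Rescaling a library hardly alters such a ratio, and leaving out 1 sample cannot reverse groups that do not overlap. The kept directions are therefore no added support. With equal library totals 38.1% of all calls were higher in spermatids, 42.0% after quantile normalization and 43.0% with no filter on low values, against 52.6% as reported. No paired analysis was possible because the labels give the groups no shared replicate numbers. Depth did not limit the 10 genes: the lowest value, 123 for Taf7l, is far above the 3.23 that 3 reads are worth in that library.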

Other observations

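The following groups of general factors were picked after their values were seen. Their genes are already counted among the 21 TBP partners and general factors above, so they are no separate result. All 5 core subunit genes of TFIIH that were listed (Gtf2h1 to Gtf2h5) were called lower in spermatids, with log2 fold changes of -2.05 to -0.82. TFIIH as a complex opens promoter DNA and takes part in excision repair. All 4 genes of SL1, the TBP complex of RNA polymerase I (Taf1a, Taf1b, Taf1c and Taf1d), were also lower, with -1.19 to -0.45. Beside them, 36.5% of all tested genes were called lower. Both groups were also called lower with TMM factors, equal library totals and quantile normalization. These scalings moved the median of all genes down, from 0.07 to -0.04, -0.57 and -0.39, so keeping these calls adds no support. Single libraries end some of the SL1 calls. Taf1a was not called without spermatocyte replicate 1 (limma adjusted p = 0.078), and Taf1d was not called without spermatid replicate 2 (0.056), spermatocyte replicate 1 (0.13) or spermatocyte replicate 2 (0.091). The rows of Taf1c and Taf1d overlap rows with higher levels than their own, so their values are uncertain.

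Among coactivators of CREB, all 3 CRTC genes (Crtc1, Crtc2 and Crtc3) were called lower in spermatids, beside 36.5% of all tested genes. Their log2 fold changes were -3.12 to -0.48, and their calls are already counted among the cofactors above. They stayed lower under each of the same scalings, which move the median gene down and so add no support. Crtc1 overlaps a row of higher level. Crtc3, with the largest fall, was at 69.8, 42.6 and 39.8 in spermatids, against 394 and 480.1 in spermatocytes. The Sertoli cell markers were also lower in spermatids, with sums of 1498 to 2166 against 56869 and 75274 in spermatocytes. Their sum was higher in spermatocyte replicate 2, as were Crtc3, Crtc1 and Gtf2h4. Crtc2, all SL1 genes and the other TFIIH genes were higher in spermatocyte replicate 1. The part of Sertoli cells in these values was not tested. The acetyltransferase genes Crebbp and Ep300 were higher, at 4985 ± 439.7 in spermatids and 1718 ± 2.84 in spermatocytes for Crebbp and at 950 ± 125 and 424 ± 2.98 for Ep300. With equal library totals 1 of these 2 genes stayed called.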
